A study of Arabidopsis thaliana with 30 samples.

Results

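The ERF and DREB stress factor genes of Arabidopsis were examined for occupancy by the SWI/SNF ATPase BRM, for the bromodomain proteins BRD1, BRD2 and BRD13, and for acetylation of histone H4. Members were the nuclear protein-coding genes whose symbol or synonym reads ERF or DREB plus a number and an optional letter. There were 33 such genes of 27444, of which 25 matched by symbol and 8 by synonym only. The low-oxygen factors HRE1, HRE2, RAP2.2, RAP2.3 and RAP2.12 matched by synonym as well and were left out. The rule uses names only, but the list was proposed with earlier results of these data known. A gene window was the gene body plus 1 kb upstream of the start.

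The data were ChIP-seq peak lists of 14-day-old seedlings in 10 groups of 2 replicates. The GFP groups were BRM-GFP, BRM-GFP in the brd1/2/13 triple mutant, BRD1-GFP, BRD2-GFP, BRD13-GFP and BRD2-dBromo-GFP, by its name a form of BRD2 changed in its bromodomain. Bromodomains bind acetylated lysine. H4K5ac and H4K8ac, acetylated forms of histone H4, were profiled in WT and brd1/2/13. Plants grew at a constant temperature in long days, and no stress treatment is named in the labels. The design text names brm-1 for BRM, brd1 for BRD1 and brd2 for BRD2, and the labels of the BRM-GFP samples state no genotype. The sources used here name no promoter for the tagged proteins and no background for BRD13-GFP. Antibody fields of the acetylation samples name GFP, and the titles were followed. Replicates are known only by the numbers in their titles, so the spread between them may be technical. In whole seedlings, fewer cells with a peak and weaker occupancy per cell cannot be told apart.

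ERF and DREB proteins share the AP2/ERF DNA-binding domain. The DREB branch binds the dehydration-responsive element, with the core CCGAC, in promoters of cold and drought genes, and the ERF branch binds the GCC box, with the core GCCGCC, in promoters of ethylene and defence genes. Many members lie silent or low in unstressed plants and are induced within minutes of a stimulus, and a subset of ERFs carries the EAR motif and represses transcription.

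The 250 bases upstream of the start are shown for the members with the highest BRM-GFP fold enrichment among genes that retained, partly retained or lost BRM in brd1/2/13. ERF3 is added as the retained member with the highest fold whose peak summit lies within its own window. All are printed 5′ to 3′ along the gene from the TAIR10.1 genome, with CACGTG, the G-box, in capitals. The other motifs described further on were searched on both strands and had no match in these stretches.
DREB2C (retained, chr2:16850495-16850744, minus strand): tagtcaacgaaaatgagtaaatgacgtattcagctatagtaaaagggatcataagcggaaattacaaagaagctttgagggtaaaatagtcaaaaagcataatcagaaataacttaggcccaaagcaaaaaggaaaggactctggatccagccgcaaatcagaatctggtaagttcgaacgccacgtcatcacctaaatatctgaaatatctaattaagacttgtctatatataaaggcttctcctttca
ERF3 (retained, chr1:18758709-18758958, minus strand): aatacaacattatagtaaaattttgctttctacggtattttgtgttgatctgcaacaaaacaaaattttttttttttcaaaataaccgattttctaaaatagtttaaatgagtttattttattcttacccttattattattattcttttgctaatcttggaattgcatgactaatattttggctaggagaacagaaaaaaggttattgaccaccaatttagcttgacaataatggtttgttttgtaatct
DREB2A (partly retained, chr5:1601955-1602204, plus strand): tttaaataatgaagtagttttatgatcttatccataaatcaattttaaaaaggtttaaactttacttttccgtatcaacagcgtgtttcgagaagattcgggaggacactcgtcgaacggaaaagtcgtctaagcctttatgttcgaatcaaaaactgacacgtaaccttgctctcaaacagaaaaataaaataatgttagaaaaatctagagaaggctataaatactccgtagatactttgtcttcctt
DREB2B (lost, chr3:3455105-3455354, plus strand): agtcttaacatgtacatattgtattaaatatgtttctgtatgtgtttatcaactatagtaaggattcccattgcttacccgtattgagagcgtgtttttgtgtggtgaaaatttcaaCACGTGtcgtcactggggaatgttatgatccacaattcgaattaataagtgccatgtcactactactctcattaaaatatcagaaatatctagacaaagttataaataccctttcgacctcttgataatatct

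A BRM-GFP region covered all 250 of these bases at DREB2C, DREB2A and DREB2B and only the last 15 at ERF3. No region of BRM-GFP in brd1/2/13 reached any of the 4 stretches.

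The lists held 6129 to 20742 nuclear peaks. Their background coverage, the depth that the lists allow to be estimated, was 10 and 18.6 reads in BRM-GFP, 37.0 and 36.4 in BRM-GFP in brd1/2/13 and 24.1 to 38.1 in the others. Every list was nearest to its own replicate by Jaccard index, the shared over the joint covered bases (0.595 to 0.821). Acetylation lists lay close to each other (0.590 or more between any 2 acetylation lists) and far from the GFP lists (at most 0.279).

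Most members had peaks of every protein that overlapped their window. A region of a group was a stretch of merged peaks that held a peak of both replicates. BRM-GFP regions were present at 30 of the 33 members, while 55.8% of all genes had one. In brd1/2/13, 24 members kept a BRM-GFP region in the window (20.8% of all genes). BRD1-GFP was present at 32 members (66.3% of all genes), ERF115 included through 28 bp of its window,, BRD2-GFP at 30 (63.4%), BRD13-GFP at 31 (56.0%) and BRD2-dBromo-GFP at 31 (62.6%). H4K5ac regions were present at 29 members in WT (70.7% of all genes) and at 30 in brd1/2/13 (72.1%). For H4K8ac the counts were 28 in WT (65.8%) and 27 in brd1/2/13 (65.8%). The members' share was above that of all genes in each of the 10 groups. A total of 30 members had regions of all 5 GFP groups outside brd1/2/13 (48.2% of all genes), and 22 had regions of all 10 groups (18.1%). When every list was reduced to its best 6129 peaks, members with a region numbered 22 to 26 in the GFP groups (19.6% to 30.7% of all genes). They numbered 1 for WT H4K5ac (26.6% of all genes) and 11 for WT H4K8ac (24.4%), so the high acetylation counts rest on the weaker peaks of those lists.

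The 95% Wilson interval of the members' BRM-GFP share, 90.9%, was 76.4% to 96.9%, which covers counting error over genes only. Among other stress-related factor families, 49 of 71 WRKY genes, 64 of 100 NAC genes and 58 of 125 MYB genes had a BRM-GFP region. The families parted more in acetylation. A WT H4K5ac region was present at 69.0% of WRKY, 47% of NAC and 28% of MYB genes, below the 87.9% of ERF and DREB genes. These shares are descriptions, and the differences between families were not tested. Each family holds only genes with a matching name, and how completely the names cover each family was not examined.

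**Figure D1:**
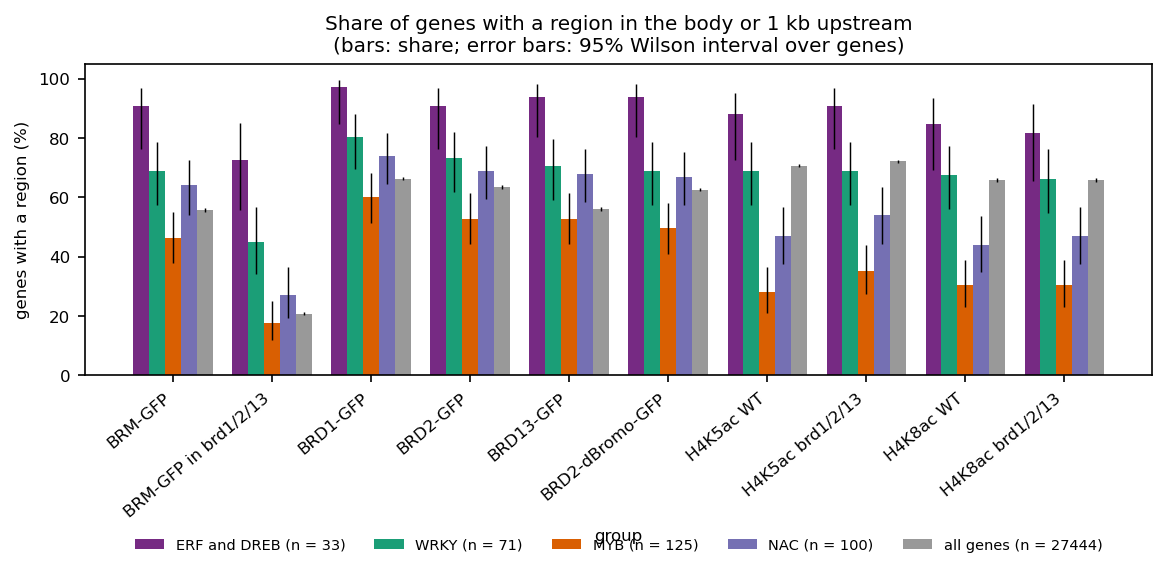
Share of genes with a region of each group (y axis, %) for the 33 ERF and DREB genes, the WRKY, MYB and NAC families and all 27444 genes, as bars with 95% Wilson intervals over genes. The ERF and DREB bars are the highest in every group, from 72.7% for BRM-GFP in brd1/2/13 to 97.0% for BRD1-GFP.

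Where a member had a peak, its strength differed between proteins and marks. Fold enrichment is the ratio of pileup to local background at a summit, and the best peak overlapping the window was taken. Ranked among all genes with a peak in a list, the members' median percentile was 78.9 and 81.4 in the BRM-GFP lists and 78.0 to 83.8 in the lists of the BRD proteins. Their median percentile was 25.0 and 25.3 for H4K5ac in WT, 21.8 and 21.2 in brd1/2/13, and 41.1 to 51.8 for H4K8ac. Over all genes with a peak the median is 50 by construction, and folds of different proteins are compared only through these ranks. By the mean percentile of both lists, 24 of 30 members were above 50 in BRM-GFP and 3 of 29 in WT H4K5ac. The other families ranked low in WT H4K5ac as well, with medians of 24.4 for WRKY, 24.4 for NAC and 29.7 for MYB beside 25.8 here, and WRKY genes ranked at 75.8 in BRM-GFP beside 79.6. Members were short genes, with a median length of 1260 bp beside 2078 bp over all genes.

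**Figure D2:**
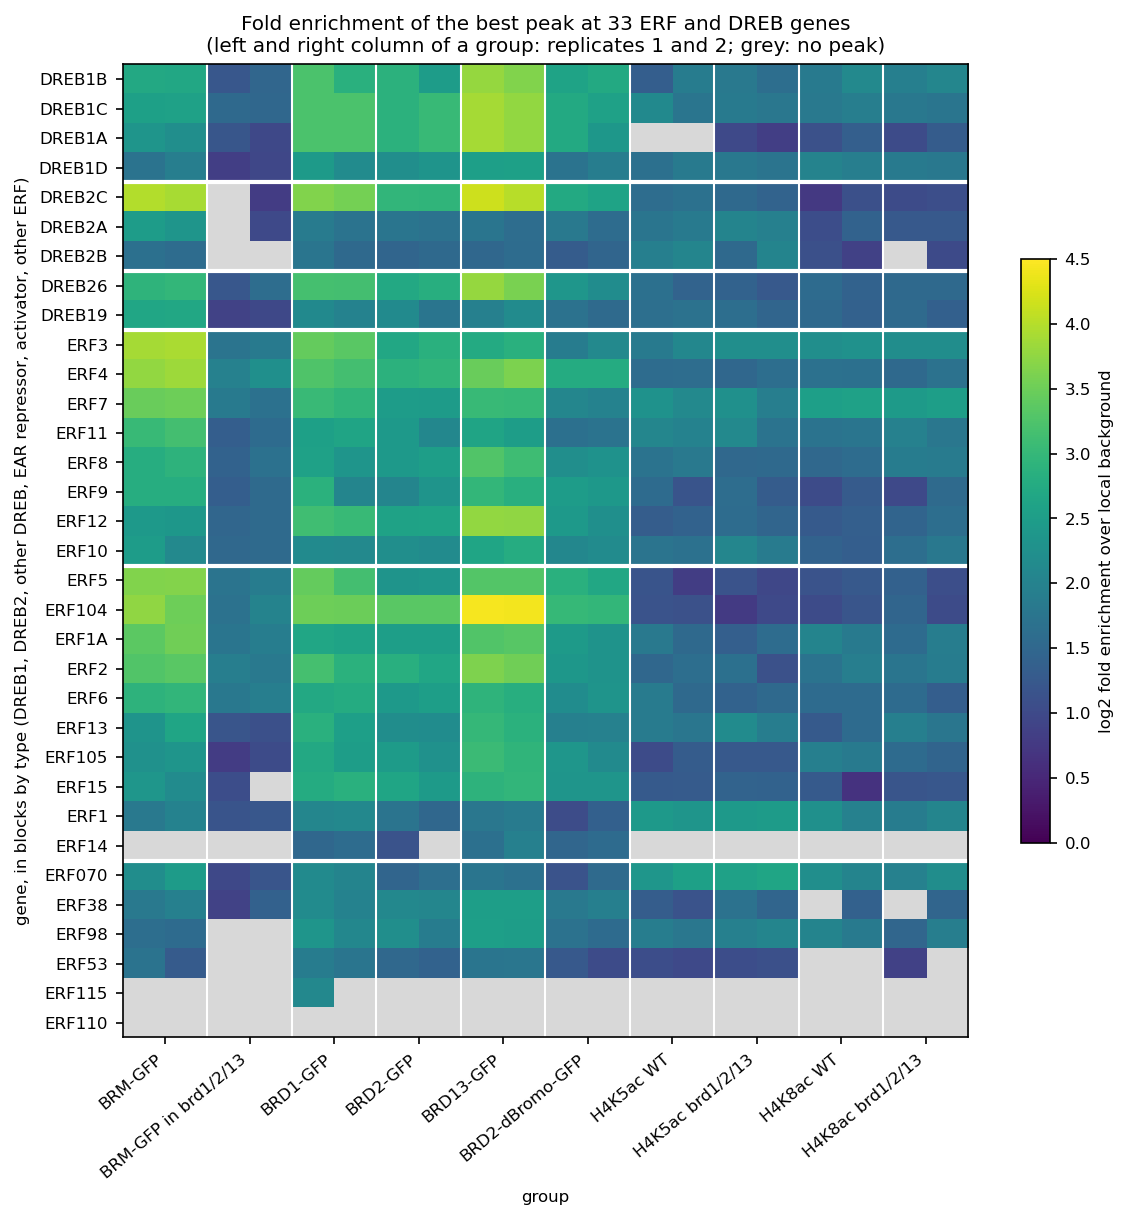
Log2 fold enrichment of the best peak (colour) at the 33 genes (rows, in blocks by type and within a block by BRM-GFP fold) in 20 lists (columns, replicates side by side), with grey for a list without a peak. Within the BRM-GFP columns DREB2C, ERF3 and ERF4 are brightest, within the BRD13-GFP columns ERF104 has the brightest cells (21.6 and 21.3 fold), and ERF110 and ERF115 are almost wholly grey.

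A best peak can reach into a window from a neighbour. Of the BRM-GFP best peaks in both lists together, 41 of 60 had the summit inside the gene, 13 upstream and 6 downstream. BRD13-GFP summits were more often outside, with 14 of 62 inside the gene, 34 upstream and 14 downstream. Over all genes the shares inside the gene were 56.3% for BRM-GFP and 38.1% for BRD13-GFP. When only peaks with the summit in the window were taken, 26 and 28 members had a BRM-GFP peak and their median percentiles were 80.9 and 85.1, close to those with all peaks.

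Acetylation and the GFP proteins both covered most members inside the gene, but differed upstream of the start and further past it. At 500 bp inside the gene, BRM-GFP regions covered 27 members and WT H4K5ac regions 28 (30.7% and 59.4% of all genes). BRD1-GFP regions covered 26 members there and BRD13-GFP regions 24 (29.2% and 22.3%). BRM-GFP regions covered 30 members at 150 to 200 bp inside the gene, the highest share along the profile, and 26 at 100 bp upstream of the start, where all genes had 44.1% at 150 bp and 37% at 100 bp upstream. WT H4K5ac regions covered 28 members at 450 to 650 bp inside the gene, and the highest share over all genes was 60.4% at 400 bp. None of the members was covered by H4K5ac or H4K8ac at 100 bp upstream, in either genotype, although 7.96% to 15.2% of all genes were. BRM-GFP, BRD1-GFP, BRD2-GFP and BRD13-GFP regions reached further past the start at members than at all genes. Members had a median length of 1260 bp beside 2078 bp, and at some of them 1000 bp past the start lies beyond the gene end. At 1000 bp past the start BRD13-GFP regions covered 24 of 33 members and 12.9% of all genes, and BRM-GFP regions covered 20 members and 14.4% of all genes. In brd1/2/13 BRM-GFP regions covered 9 members at 100 bp upstream and 23 at 500 bp inside, while all genes had 9.83% and 10.8% at these distances.

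**Figure D3:**
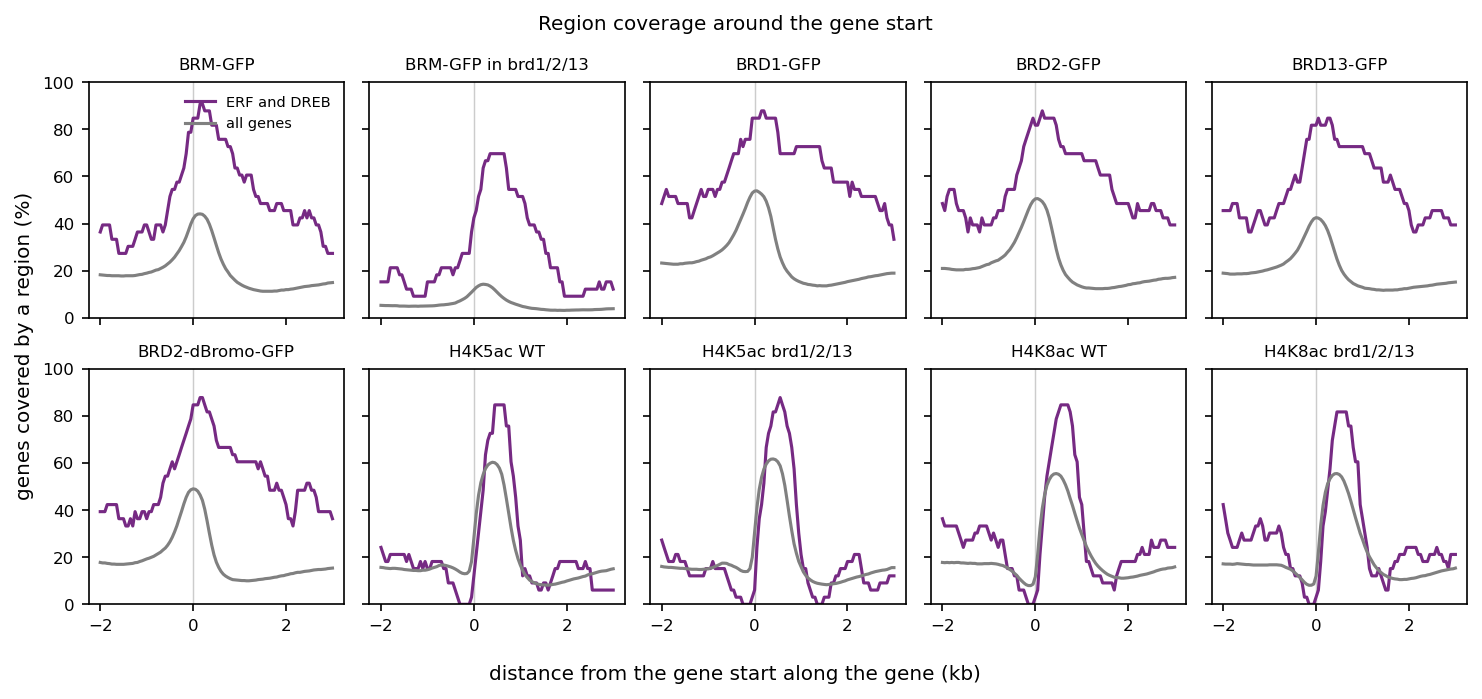
Percent of genes covered by a region of each group (y axis) by distance from the gene start along the gene (x axis, kb), for the 33 ERF and DREB genes and all genes. The member line is above that of all genes at the start in each GFP panel, and in the acetylation panels it drops to 0 just upstream of the start and peaks at 81.8% to 87.9% inside the gene.

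BRM remained at most members without BRD1, BRD2 and BRD13. A BRM-GFP region counted as retained where a peak of each mutant list overlapped it, as partly retained where 1 list did, and as lost where none had, and a gene took the best status of its regions. Of the 30 bound members, 25 retained BRM (43.9% of all bound genes), 2 retained it partly (15.1%) and 3 lost it (41.0%). No member had a mutant region without a BRM-GFP region outside the mutant. Of the 33 BRM-GFP regions at members, 25 overlapped peaks of both mutant lists, and over all 13638 regions the share was 32.6%.

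Wide regions were retained more often over the whole genome, and the members' regions were wide. The widest BRM-GFP region of a member measured 787 to 8319 bp with a median of 2731 bp, while other bound genes had a median of 1228 bp. The region was wider than the gene at 27 of 30 members and at 29.2% of other bound genes. Among other bound genes the retained share climbed from 0.989% in the narrowest of 10 width bins to 96.3% in the widest. At equal width, other genes had a retained share of 70.5%, and the members' share was 83.3% (95% Wilson interval 66.4% to 92.7%). The difference of 12.8 points equals 25 retained members where 21.1 would match equal width, and the interval holds the value of 70.5%. With mutant peaks required to cover 50% of the region, 14 members were retained and 9 lost, and the share of 46.7% compared with 22.4% at equal width, a difference of 24.3 points. With mutant peaks required inside the gene window the difference was 23.7 points. At equal width and equal BRM-GFP fold together, the comparison added after seeing the data, other genes had 77.0% and the difference was 6.36 points. All 16 members in the 2 widest bins retained BRM, where 84.6% and 96.3% of other genes did.

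**Figure D4:**
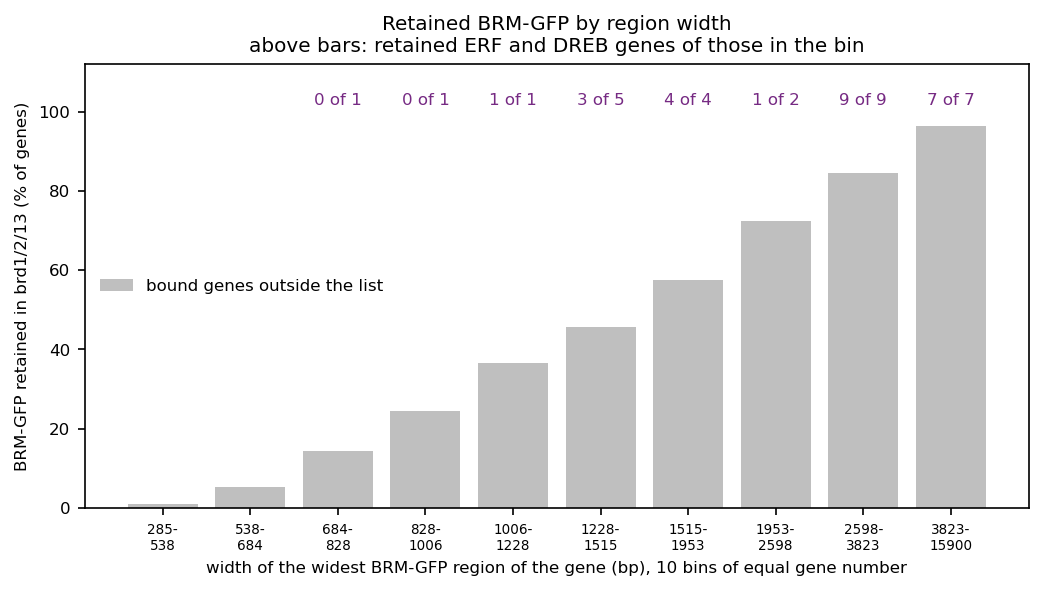
Percent of bound genes outside the list that retained BRM-GFP in brd1/2/13 (bars, y axis) in 10 bins of the width of the widest BRM-GFP region (x axis, bp), with numbers above the bars for retained ERF and DREB genes of those in the bin. Retention climbs with width in the bars, and 18 of the 30 bound members fall in the 3 widest bins.

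Where BRM was retained, the called peaks had lower folds and the regions were narrower in the mutant lists. The mutant lists had higher background coverage than the BRM-GFP lists and a lower largest q. The part of depth and calling limit in the lower folds and widths was not tested. All 24 members with peaks in all 4 lists had lower folds in both mutant lists than in both BRM-GFP lists, as did 99.8% of all such genes. The median log2 ratio of mutant to BRM-GFP fold was −1.36 over these members (−2.11 to −0.72) and −1.32 over all genes. By rank within each list, the median change was −4.88 percentile points over these members and −16.0 over all such genes. These ranks were taken among 15533 and 17244 genes in the BRM-GFP lists and 6392 and 7228 in the mutant lists. The 5550 genes with peaks in all 4 lists are most of the mutant genes, so a drop over them is partly fixed by the lists. The 2 changes thus do not show whether members held their BRM rank better. The mutant region was narrower than the BRM-GFP region at 23 of 24 members, with medians of 1355 and 3024 bp, and the 5663 other genes with both regions had medians of 945 and 2113 bp. The exception was ERF105, with 1378 bp in the mutant and 1346 bp outside. The best summits of BRM-GFP and mutant lists of the same number lay a median of 84 bp apart over 51 pairs. Of these pairs 36 were within 200 bp and 7 over 1000 bp apart, at DREB19 in both replicates and at DREB26, DREB2C, DREB1B, ERF9 and ERF104 in 1 each, so the folds there may come from different peaks.

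**Figure D5:**
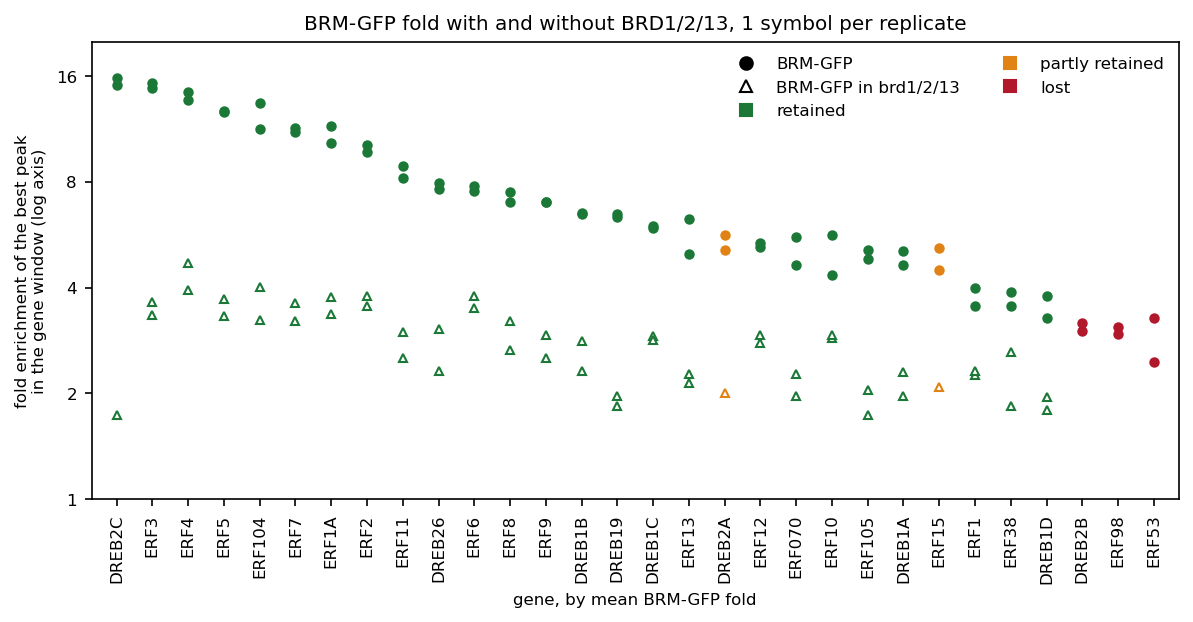
Fold enrichment of the best BRM-GFP peak (y axis, log scale) for the 30 bound members (x axis, by mean fold), with 1 symbol per replicate (circles for BRM-GFP, triangles for BRM-GFP in brd1/2/13) and colours for the status. Triangles lie below circles at every gene that has both, and the 3 lost genes have the lowest mean folds of the circles, 2.86 to 3.10.

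The 4 DREB1 genes, activators of the cold-regulated genes, all retained BRM. DREB1A (also named CBF3), DREB1B (CBF1) and DREB1C (CBF2) form a tandem array on chromosome 4 between 13015250 and 13022996, with gaps of 1774 and 2379 bp and no gene between them. DREB1A and DREB1C shared a BRM-GFP region of 2731 bp, so their values are not independent, and DREB1C had a further region of 1700 bp at its own start. At DREB1B the BRM-GFP folds were 6.54 and 6.48, and in brd1/2/13 they were 2.32 and 2.81. At DREB1C they were 5.91 and 5.97 outside the mutant and 2.91 and 2.84 in it. DREB1A had 5.09 and 4.65, and 2.3 and 1.96 in the mutant, all with summits past its end, 1445 to 1533 bp from its start. The BRM-GFP folds of the array were moderate, while BRD13-GFP was among the strongest of its lists.

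BRD13-GFP folds at DREB1C were 14.9 and 13.7, and those at DREB1B 13.8 and 12.6, with mean percentiles of 96.4 and 95.2. BRD1-GFP folds at DREB1C were 9.37 and 9.35. The BRD summits assigned to DREB1A were those of the DREB1C promoter, 3017 bp or more from the start of DREB1A in 7 of 8 lists. DREB1D (CBF4, a drought-responsive paralog on chromosome 5) had lower BRM-GFP folds of 3.27 and 3.78, and 1.79 and 1.95 in brd1/2/13.

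DREB1A was the only member with an H4K5ac region in 1 genotype only. It had no H4K5ac peak in either WT list and peaks of 2.00 and 1.78 fold in the brd1/2/13 lists. These folds are near the lower end of the lists, at a mean percentile of 3.54, and the lowest folds called in these mutant lists were 1.44 and 1.37. The other DREB1 genes had H4K5ac peaks in all 4 lists, with folds of 2.54 to 4.41.

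The 3 members named DREB2 plus a letter, factors of drought and heat responses, fell into 3 different classes. DREB2A, whose protein is degraded in unstressed plants, was partly retained, with BRM-GFP folds of 5.63 and 5.10 and a mutant peak of 2.00 fold in replicate 2 only. DREB2B, its close homologue, lost BRM, with folds of 3.18 and 3.01 and no mutant peak. Its H4K8ac peaks, 2.13 and 1.83 fold in WT, left a single mutant peak of 2.02 fold, so it had an H4K8ac region in WT only. DREB2C, a heat-induced activator of HSFA3, counted as retained through a region of 5809 bp that overlaps its 3′ end and spans the abscisic acid receptor gene PYL6.

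The summits of the strong DREB2C peaks, 15.8 and 15.1 fold in BRM-GFP, lay 4875 and 4808 bp from its start, in the downstream direction, and those of the BRD proteins 6869 bp or more from it. The best peaks with a summit in its own window had folds of 3.54 and 3.68, and the mutant lists had a single such peak of 1.74 fold in replicate 2. Its promoter region of 954 bp was thus partly retained, and DREB2C was the 1 retained member without a mutant region in the window.

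DREB19 and DREB26, which carry no name of DREB1 or DREB2 plus a letter, both retained BRM. DREB26 lay within a BRM-GFP region of 7995 bp that covered its whole window and had folds of 7.63 and 7.91, and 2.32 and 3.04 in brd1/2/13, where the summit in replicate 2 lay at −1632 bp from the start. At DREB19 the best BRM-GFP peaks, 6.36 and 6.48 fold, had summits at −1877 and −1825 bp from the start, outside the window. The mutant peaks there, 1.84 and 1.96 fold, had summits at −342 and −256 bp, so these are not the same peaks. BRD13-GFP peaks of 13.8 and 12.1 fold reached into the DREB26 window from summits at −1539 bp, while those of DREB19, 3.90 and 4.48 fold, had summits inside its window.

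The 8 EAR repressor genes, ERF3, ERF4 and ERF7 to ERF12, all had regions of all 10 groups and all retained BRM, and they differed in strength. Their median percentile of BRM-GFP fold was 89.3, with a range of 67.1 to 99.5, and that in brd1/2/13 was 83.6. ERF3 had the highest folds of these genes outside the mutant, 14.8 and 15.3, and 3.34 and 3.63 in it. ERF4, a repressor of ethylene and jasmonate responses, had 13.7 and 14.4, and with 3.93 and 4.70 the highest mutant folds of any member. Its region of 8319 bp was the widest of all members. ERF7, a repressor of abscisic acid responses in guard cells, had 11.1 and 11.4, and 3.61 and 3.21 in brd1/2/13. These 3 genes stood above the other repressors in BRM-GFP without overlap of their values.

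ERF11 had BRM-GFP folds of 8.18 and 8.88, and 2.53 and 2.99 in the mutant. ERF8 had 7.0 and 7.50, and 2.66 and 3.21. ERF9 had 7.0 and 6.99, and 2.53 and 2.94, with the BRM-GFP summit of replicate 1 lying 2618 bp from the start and past the gene's end. ERF12 and ERF10 were the lowest of the type in BRM-GFP and had mutant folds within the range of ERF8, ERF9 and ERF11. ERF12, which lies 2668 bp from ERF11 with no gene between, had 5.36 and 5.21, and 2.79 and 2.94 in the mutant. ERF10 had 5.63 and 4.34, and 2.87 and 2.94. ERF7 and ERF3 were also the members with the highest H4K8ac ranks. ERF7 had H4K8ac folds of 5.82 and 5.99 in WT and 5.45 and 5.72 in brd1/2/13, at mean percentiles of 99.1 and 98.4.

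Of the 10 activator genes, 8 retained BRM, ERF15 retained it partly and ERF14 had no BRM-GFP region. ERF5 and ERF6, regulators of growth and defence under stress, ERF1A and ERF2, activators through the GCC box, and ERF104, a substrate of the immune kinase MPK6, were strongly occupied. ERF5 had BRM-GFP folds of 12.6 and 12.7, and 3.31 and 3.71 in the mutant. ERF104 had 13.4 and 11.3, and 3.23 and 4.02 in the mutant. ERF1A had 10.3 and 11.5, and 3.36 and 3.77. These values placed the mutant peaks of all 3 genes among the strongest of their lists, with mean percentiles of 94.4 at ERF5 and 94.8 at ERF104, where the summit in replicate 2 lay 3608 bp from the start.

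ERF2 had 9.72 and 10.2 fold in BRM-GFP and 3.79 and 3.55 in the mutant. ERF6 had 7.54 and 7.76, and 3.50 and 3.78. ERF104 had the highest BRD13-GFP folds of any member, 21.6 and 21.3, but these summits lay 3579 and 3591 bp from its start and past its end. The neighbours ERF6 and ERF1A, and ERF2 and ERF5, with 1 gene between the latter, lie 5041 and 6924 bp apart and had separate BRM-GFP regions.

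The remaining activators were weaker in BRM-GFP. ERF13 had 5.0 and 6.28 fold, and 2.27 and 2.14 in the mutant. ERF105, a factor of cold responses, had 4.82 and 5.10, and 1.74 and 2.04. ERF1, an integrator of ethylene and jasmonate signals, had 3.54 and 3.98, and 2.26 and 2.32. These 3 genes kept a mutant peak in both lists. ERF15, a positive factor of abscisic acid responses, had 5.18 and 4.49 and a single mutant peak of 2.08 fold in replicate 1. ERF15 and DREB2A thus had their mutant peak in opposite replicates, and either would have been called retained in 1 list alone and lost in the other.

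ERF14, an activator of defence genes, had no BRM-GFP peak in any of the 4 lists. BRD1-GFP peaks of 2.84 and 3.03 fold, BRD13-GFP peaks of 3.16 and 3.89 fold and BRD2-dBromo-GFP peaks of 2.79 and 2.97 fold were present there, and BRD2-GFP had a single peak of 2.22 fold in replicate 1. The gene had no acetylation peak in any list. The 1st percentiles of fold in the BRM-GFP lists were 2.00 and 1.74, and their background coverage was lower than that of BRD1-GFP (10 and 18.6 beside 38.1 and 25.4 reads). The part of depth in the missing call was not tested.

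Of the 6 other members with an ERF name, 2 had no BRM-GFP region, 2 lost BRM and 2 retained it. The split into ERF and DREB genes follows names here and not the branch or binding site of the protein. ERF110, a factor of bolting, had no peak in any of the 20 lists. ERF115, a factor of division in the root stem cell niche, had a single BRD1-GFP peak of 4.27 fold in replicate 1, with its summit at −2276 bp from the start. ERF98, a regulator of ascorbate synthesis, and ERF53, a drought-induced factor, lost BRM. ERF98 had BRM-GFP folds of 3.09 and 2.96 and no mutant peak. ERF53 had 3.27 and 2.45 and no mutant peak, with the summit of replicate 1 at −1147 bp from the start. Together with DREB2B, these lost members had the lowest mean BRM-GFP folds of the 30 bound members, 2.86 to 3.10, and the next was DREB1D with 3.52. The mutant lists had few peaks under 1.59 fold, their 1st percentile, and the part of this limit in the losses was not tested. ERF1, which lies 5452 bp from ERF98, retained BRM.

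ERF070 (symbol CRF8, a cytokinin response factor) had BRM-GFP folds of 4.63 and 5.56, and 1.96 and 2.27 in the mutant. ERF38 had 3.54 and 3.88, and 1.84 and 2.62, with the BRM-GFP summit of replicate 1 past its end. Both counted as retained. ERF38 had an H4K8ac peak in replicate 2 of each genotype only, 2.62 and 2.76 fold, and so no H4K8ac region. ERF53 had a single H4K8ac peak, of 1.83 fold, in replicate 1 of brd1/2/13.

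BRD2-dBromo-GFP occupied nearly the same number of members as BRD2-GFP. BRD2-GFP peaks were present at 31 and 30 members and BRD2-dBromo-GFP peaks at 31 in each list, a difference of 0.5 members (p = 1.000, two-sided exact permutation test of 2 against 2 lists). Folds were lower with BRD2-dBromo-GFP at 23 of 30 members without overlap of the lists (50.8% of all genes) and higher at 2 (12.2%). The median log2 ratio was −0.24 over the members and −0.17 over all genes. ERF3 had 6.52 and 7.23 fold with BRD2-GFP and 3.70 and 4.32 with BRD2-dBromo-GFP. ERF5 was higher with BRD2-dBromo-GFP, at 7.21 and 6.46 beside 5.02 and 5.16. Ranks changed little, with a median change of 0.265 percentile points over the members.

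The number of acetylated members differed by at most 1 gene between genotypes. H4K5ac peaks were present at 29 and 29 members in WT and 30 and 30 in brd1/2/13, the additional gene being DREB1A (p = 0.33, two-sided exact permutation test). H4K8ac peaks were present at 28 and 29 members in both genotypes (p = 1.000, two-sided exact permutation test). H4K5ac folds were higher in brd1/2/13 without overlap at 10 of 29 members (35.0% of all genes) and lower at 6 (12.9%). H4K8ac folds were lower at 5 of 27 members (19.0%) and higher at 5 (22.6%). Folds of WT and mutant overlapped at the other members. The median log2 ratio was 0.05 for H4K5ac and −0.01 for H4K8ac.

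BRM-GFP peaks were present at 30 and 30 members, and at 25 and 26 in brd1/2/13. The difference of −4.5 members had a p of 0.33 by the two-sided exact permutation test. That is the smallest value 2 against 2 lists can give, so none of the 4 count comparisons could pass a threshold of 0.05. The mutant lists were called by the authors at a largest q of 0.00961 and 0.00997, and the BRM-GFP lists at 0.0455 and 0.0499. With every list reduced to its best 6129 peaks, the difference was 0 members (p = 1.000, exact permutation test).

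Genes upstream and downstream of the ERF and DREB factors were read in the same way. Of 13 upstream regulators, all had a BRM-GFP region (55.8% of all genes). Of these, 7 retained BRM (43.9% of all bound genes), 2 retained it partly (15.1%) and 4 lost it (41.0%). ICE1, the activator of the DREB1 genes in the cold, was partly retained, with 5.36 and 4.95 fold and a mutant peak of 1.69 fold in replicate 2. Its paralog SCRM2 lost BRM, with 6.09 and 4.39 fold. CAMTA3, a calmodulin-binding activator of DREB1C, retained it at 7.54 and 7.04 fold, and 2.37 and 2.75 in the mutant. The ethylene factors EIN3 and EIL1, which activate ERF1, both retained BRM. EIN3 had 8.90 and 8.07 fold, and 2.11 and 2.51 in the mutant. DRIP1 and DRIP2, ubiquitin ligases that mark DREB2A for breakdown, both lost it, with 3.54 and 3.98 fold and 2.54 and 2.19 fold. The kinase MPK3 retained BRM and MPK6 lost it.

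Of 14 downstream genes, 11 had a BRM-GFP region (55.8% of all genes). Of these 11, 7 retained BRM (43.9% of all bound genes), 1 retained it partly (15.1%) and 3 lost it (41.0%). The cold protectant genes COR15A and COR15B and the defensin gene PDF1.2 had no BRM-GFP region. RD29A, the marker gene of the DREB pathway, was partly retained, with 4.27 and 4.44 fold and a mutant peak of 1.79 fold in replicate 2. The dehydrins COR47 and ERD10 are neighbours that share a region of 8083 bp, and both counted as retained. KIN1 and KIN2 share a region of 4347 bp as well, so the statuses within each pair are not independent. KIN1 had no mutant peak of its own. HSFA3, a heat shock factor under DREB2 control, retained BRM with 7.0 and 6.43 fold, and 2.79 and 3.32 in the mutant.

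Motifs were searched on both strands from 250 bases before to 50 after the start. CCGAC was found at 5 of 33 members (15.2%, and 4130 of 27444 promoters), GCCGCC at 2 (2.57% of all promoters), CACGTG at 9 (7.68%) and GAGAGA, a GA repeat, at 8 (29.2%). All 9 members with CACGTG were among the 30 bound ones, and over all bound genes the share was 9.95%. Matches for the binding sites of the family itself and for the G-box are shown with 10 bases on each side, 5′ to 3′ along the gene. Capitals mark the motif, which reads GTCGG where CCGAC lies on the opposite strand. They were chosen for display after their counts were seen.
ERF53, CCGAC, chr2:8985756-8985780: ccgcggttagCCGACcatactatca
ERF38, CCGAC, chr2:15005068-15005092: taacaagacaCCGACctcttcttct
ERF7, CCGAC, chr3:7086990-7087014: aaacgaattgGTCGGtcttgtgggt
ERF7, CCGAC, second match, chr3:7086977-7087001: ggtcttgtggGTCGGgcgtgaaggt
ERF9, CCGAC, chr5:17806360-17806384: tcatattgggCCGACaaaaaaaaaa
ERF5, CCGAC, chr5:19179765-19179789: ctatagatgaGTCGGtcattcgatc
ERF11, GCCGCC, chr1:9956993-9957018: ctgccactcgGCCGCCcctttgttga
ERF15, GCCGCC, chr2:13307781-13307806: tcattttctcGCCGCCtaacgtcact
ERF12, CACGTG, chr1:9951558-9951583: gtagaacaccCACGTGtaacaatctc
ERF15, CACGTG, chr2:13307745-13307770: agttttacgcCACGTGtaaataaaaa
DREB2B, CACGTG, chr3:3455212-3455237: aaaatttcaaCACGTGtcgtcactgg
ERF4, CACGTG, chr3:5121229-5121254: gaaagaaaaaCACGTGgcaaaagata
ERF98, CACGTG, chr3:8290336-8290361: gtttgtgcacCACGTGgaatcttcct
ERF98, CACGTG, second match, chr3:8290208-8290233: atcgtcaagtCACGTGaaaacgaacg
ERF1A, CACGTG, chr4:9759107-9759132: ggataaaacgCACGTGtttaattcac
DREB1C, CACGTG, chr4:13016322-13016347: gtttcttatcCACGTGgcattcacag
ERF2, CACGTG, chr5:19172980-19173005: ggataaagcgCACGTGtttaattcac
DREB1D, CACGTG, chr5:21117955-21117980: ttcagaaggaCACGTGtaagtcacat

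The G-box windows of ERF1A and ERF2 were identical at 25 of 26 bases. CACGTG was present at 6 of the 25 retained members, at ERF15 among the partly retained and at DREB2B and ERF98 among the lost. A match describes these letters and no binding site.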

How the data were processed

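The submitters' processing notes list the build TAIR10 and, as tools, Bowtie, MACS2 2.1.1 and deepTools. No source used here states the Bowtie version, the read filters or how inputs entered peak calling. The authors' lists, 1 per immunoprecipitated sample, hold a score (10 times the −log10 q), a fold ratio over local background, a −log10 p and a −log10 q per peak, all deposited as the peak caller gave them. Inputs and chloroplast peaks were not used. RefSeq's annotation and genome of TAIR10.1 gave genes and promoters. An overlap of 1 bp counted. Pileup and background coverage were solved from fold and p, as Poisson values, for 83.9% to 99.9% of peaks, and intervals cover counting error only. Equal width used 10 bins of bound non-members. Counts per list were compared by exact permutation over 2 against 2 lists. Python 3.11.15, numpy 2.4.6, pandas 2.3.3, scipy 1.17.1 and matplotlib 3.10.9 were used, and the functions were tested on simulated data. Members, type groups, pathway genes and comparison families were chosen with earlier results of these data known. The rule for named genes took all DREB1, DREB2, EAR repressor and activator genes, the 3 other members with the highest BRM-GFP fold of each status, members without a BRM-GFP region and members with a region in 1 genotype only. ERF38 and the pathway genes named were chosen after their values were seen. Protein sequences were not analysed here. Alternatives changed the q limit, window, names, replicates, peak number, overlap and matching.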

Additional observations from a re-analysis of the deposited data

How the results depend on the processing

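Replicate numbers pair no samples here, since differences between replicates 1 and 2 did not correlate across groups (−0.01 to 0.04 over genes). With a replicate block, an exact sign-flip test of 2 pairs with a smallest p of 0.5, the count differences were −4.5 for BRM-GFP (p = 0.5), 0.5 for BRD2-dBromo-GFP (p = 1.0), 1 for H4K5ac (p = 0.5) and 0 for H4K8ac (p = 1.0). Of 194 alternative values over 18 results, 172 stayed the same by direction and size. With equal numbers of peaks in every list, members with a region fell to 1 and 2 for H4K5ac in WT and brd1/2/13 (26.6% of all genes in each). For H4K8ac they fell to 11 and 7 (24.4% and 23.9%). Bound members fell from 30 to 24, of which 22 retained BRM (73.9% of all bound genes) and 0 lost it (13.3%). The members' retained share was then 91.7%, beside 85.3% at equal width. Count differences became 0 for BRM-GFP, −1.5 for BRD2-dBromo-GFP, a reversal, and −1 for H4K8ac. That setting keeps fewer peaks of every other list. With mutant peaks over at least 50% of the region, 14 members were retained, 7 partly and 9 lost, and the difference from genes of equal width was 24.3 points. It was 23.7 points with mutant peaks inside the gene window, and 6.33 to 14.8 points under the other alternatives. Within 500 bp of the start the count differences were 0 for BRD2-dBromo-GFP, 0 for H4K5ac and 1.5 for H4K8ac, and at −log10 q of at least 3 that of H4K8ac was 1. Leaving out each replicate gave 0 to 1 for BRD2-dBromo-GFP and −0.5 to 0.5 for H4K8ac. The cause of these changes was not tested. The q limit of 0.01 for all lists, 1 member per shared region and matching on width and fold together were added after seeing the data. BRM-GFP lists had the lowest background coverage, and the part of depth in missing peaks was not tested.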

Other observations

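The 5 low-oxygen genes HRE1, HRE2, RAP2.2, RAP2.3 and RAP2.12, which carry an ERF synonym and were left out of the list, all had a BRM-GFP region. Of all genes, 55.8% had such a region. BRM was retained at 4 of the 5 low-oxygen genes (43.9% of all bound genes) and partly retained at 1 (15.1%). The Wilson interval of their retained share, 37.6% to 96.4%, holds the value of 43.9%. All 5 had H4K5ac and H4K8ac regions in both genotypes, while 65.8% to 72.1% of all genes had a region in each of these groups.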
